A study of Mus musculus with 6 samples.

Results

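Smooth muscle contractile genes encode the actin, myosin, tropomyosin and actin-binding proteins with which smooth muscle cells produce force. 10 of them were followed here by gene symbol: Actg2, Acta2, Cnn1, Myl9, Tagln, Tpm1, Tpm2, Myh11, Fhl1 and Smtn. They are 10 of the 23227 genes in each exonic table and of the 23231 genes in each intronic table, and all 10 were found in all 8 tables. The RNA came from cultured adult mesenchymal stem cells of the mouse, kept as immortalized lines that each descend from 1 cell and called fibroblasts in some labels. Dicer KO cells (Dicer -/-) were set against Dicer WT cells (Dicer f/f). Dicer WT cells transfected with a vector for Tead4, Sox9 or Pbx3 were set against Dicer WT cells transfected with the empty vector. Each genotype is a single clone, so an effect of Dicer loss and a difference between clones cannot be told apart. Every group holds 2 libraries, and nothing in the labels says that they were separate cultures.

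Smooth muscle contracts when myosin light chain kinase phosphorylates the regulatory light chain of myosin, which then pulls on actin filaments, while calponin, tropomyosin and transgelin sit along the filament. Most of these genes are switched on by serum response factor (SRF), which binds the CArG box, a short A/T-rich promoter element, together with myocardin or the myocardin-related factors that sense unpolymerized actin. Stromal cells in culture and myofibroblasts use part of the same programme, with TGF-beta as a known inducer. Dicer cuts microRNA precursors into mature microRNAs. Tead4 is the DNA-binding partner of the coactivator YAP and reads the MCAT element CATTCC, Sox9 is a regulator of cartilage cells, and Pbx3 is a homeodomain factor.

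Exonic reads, which come mostly from mature mRNA, totalled 6130267 to 23501655 per library over 12 libraries, while reads in introns, a measure mainly of unspliced RNA, totalled 3156973 to 10205497. Levels are normalised read counts, that is reads divided by the size factor of the library, or CPM, reads scaled to the gene reads of the library. A difference is a limma log2 fold change with its standard error from 2 libraries per group, on log2 of the normalised count plus 1. "Rose" and "fell" are kept for genes with a Benjamini-Hochberg adjusted limma p under 0.05 over all genes tested, which needed a mean of at least 50 normalised counts. Tead4 transcripts were 7.17 ± 0.18 higher in Tead4 cells and Pbx3 transcripts 7.04 ± 0.21 higher in Pbx3 cells (limma adjusted p = 0.000284 and 0.0013). Sox9 transcripts were 1.29 ± 0.39 higher in Sox9 cells and did not pass (limma adjusted p = 0.272). Dicer1 reads over the whole gene were at -0.46 ± 0.14 in Dicer KO cells and did not pass (limma adjusted p = 0.0859). A total over the gene does not test for a missing exon, and the knockout was not checked by it.

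RefSeq promoters of 300 bases, from 250 before to 50 after the start of the gene, were listed for 7 of the 10 genes, in 8 windows of GRCm38.p6. Actg2, Tagln and Myh11 were not listed. The windows of 5 genes are shown: Acta2 as the most abundant of the 10, Cnn1, Myl9 and Fhl1 because they fell with Dicer loss by more than 3 on the log2 scale, and Tpm1 because it carries CATTCC. Capitals mark a CArG box, a CArG-like box with 1 G or C among its 6 middle bases, or CATTCC on either strand, and all sequences run 5′ to 3′ on the strand of the gene.
Acta2 promoter, chr19:34255324-34255623, minus strand: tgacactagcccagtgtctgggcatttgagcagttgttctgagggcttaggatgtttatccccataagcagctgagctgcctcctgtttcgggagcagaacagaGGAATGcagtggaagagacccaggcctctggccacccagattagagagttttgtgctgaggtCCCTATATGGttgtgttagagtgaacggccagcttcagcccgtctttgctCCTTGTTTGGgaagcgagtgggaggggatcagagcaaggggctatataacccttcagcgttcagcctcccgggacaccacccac
Myl9 promoter, chr2:156775214-156775513, plus strand: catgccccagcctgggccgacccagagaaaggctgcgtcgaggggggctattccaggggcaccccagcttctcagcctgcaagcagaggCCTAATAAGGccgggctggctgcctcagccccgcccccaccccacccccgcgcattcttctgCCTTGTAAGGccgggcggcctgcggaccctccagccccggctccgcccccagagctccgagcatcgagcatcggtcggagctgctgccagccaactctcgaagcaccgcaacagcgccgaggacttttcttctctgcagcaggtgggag
Cnn1 promoter, chr9:22099003-22099302, plus strand: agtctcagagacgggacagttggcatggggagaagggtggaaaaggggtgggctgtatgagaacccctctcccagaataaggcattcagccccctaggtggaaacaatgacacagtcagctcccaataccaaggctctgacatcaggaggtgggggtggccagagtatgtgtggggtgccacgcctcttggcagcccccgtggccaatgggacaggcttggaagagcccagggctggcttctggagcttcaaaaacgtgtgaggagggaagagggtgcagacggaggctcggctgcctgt
Tpm1 promoter, chr9:67049164-67049463, minus strand: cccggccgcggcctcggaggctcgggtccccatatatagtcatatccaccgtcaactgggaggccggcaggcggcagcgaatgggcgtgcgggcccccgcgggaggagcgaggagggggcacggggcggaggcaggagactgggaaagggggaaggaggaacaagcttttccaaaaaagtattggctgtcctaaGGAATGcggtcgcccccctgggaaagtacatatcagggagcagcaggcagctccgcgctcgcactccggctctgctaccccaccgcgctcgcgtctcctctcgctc
Fhl1 promoter, first of 2 windows, chrX:56779433-56779732, plus strand: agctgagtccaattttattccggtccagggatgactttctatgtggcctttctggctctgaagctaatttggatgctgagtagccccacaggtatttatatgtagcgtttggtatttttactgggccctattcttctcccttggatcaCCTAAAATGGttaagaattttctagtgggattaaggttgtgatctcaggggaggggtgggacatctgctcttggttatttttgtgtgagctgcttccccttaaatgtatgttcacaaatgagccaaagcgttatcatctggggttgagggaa

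The CArG box itself, searched on both strands, was present in 2 of the 8 windows, against 1.63% of all 32851 promoters. Myl9 carried CCTAATAAGG at 161 bases before the start site and Fhl1, in its first window, CCTAAAATGG at 102 bases before it. The CArG-like box was defined after the promoters were read, so its count is no test of these genes. It was present in 2 of the 8 windows, those of Acta2 and Myl9, and in 8.5% of all promoters. Acta2 carried CCCTATATGG and CCTTGTTTGG at 84 and 34 bases before the start site, and Myl9 carried CCTTGTAAGG at 99 bases. CATTCC lay in 3 of the 8 windows, those of Tpm1, Smtn and Acta2, and in 14.7% of all promoters. ACAAAG, read by SOX factors, lay in 1 of the 8 windows, the second of Fhl1, and in 18.7% of all promoters. TGATTG, used for PBX factors, lay in 0 of the 8 windows and in 14.0% of all promoters. A match is only a run of letters in this window.

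The 10 genes differed by more than 3 orders of magnitude in level per length. In Dicer WT cells Acta2, the smooth muscle alpha-actin, had 2037 and 1356 RPKM, that is CPM per kilobase of exon. Myl9, the regulatory myosin light chain, followed with 667 and 524 RPKM, and the alpha-tropomyosin gene Tpm1 with 359 and 330 RPKM. Tagln, the actin-binding protein transgelin, had 394 and 155 RPKM and overlapped with Tpm1 in this order. The beta-tropomyosin gene Tpm2 had 174 and 124 RPKM, and Cnn1 (calponin), Actg2 (enteric gamma-actin) and Fhl1 (a LIM domain protein) averaged 93.1, 89.9 and 65.2 RPKM with overlapping libraries. Smtn, the actin-binding protein smoothelin, was far below these at 7.73 and 7.39 RPKM. Myh11, the smooth muscle myosin heavy chain and the most specific marker of the mature cell type, had 0.448 and 0.391 RPKM. Lengths are those of all exons of a gene joined, in GENCODE M21, which understates genes that use few of their exons, such as Tpm1.

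Myh11 stayed at this low level in every group, from 0.37 RPKM in a Dicer KO library to 0.779 RPKM in a Sox9 library. Of 12 stromal markers, Thy1 had 0 reads in all groups and the other 11 were present, with 4271 to 9771 CPM in sum per library. The summed CPM of 6 endothelial markers stayed at or below 0.64, that of 6 blood markers at or below 2.93 and that of 5 epithelial markers at or below 0.596 in all 12 libraries. The 13 striated muscle markers summed to 44.6 to 174 CPM per library, most of it from the skeletal actin gene Acta1, at 42.3 to 169 CPM, while Myog and Pax7 had 0 exonic reads in all groups. The cells thus carried stromal markers, smooth muscle actin and some skeletal actin, with little Myh11.

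Summed over the 10 genes, a Dicer KO library held 3061 or 2073 CPM and a Dicer WT library 9757 or 6851 CPM. Among the transfected cells the sum was 3777 and 3858 CPM with Tead4, 7979 and 5744 CPM with Sox9, 5215 and 6106 CPM with Pbx3 and 6477 and 4885 CPM with vector. The Dicer KO libraries lay below all others and the Tead4 libraries below those of the other transfected cells, while Sox9, Pbx3 and vector libraries overlapped. Acta2 and Tpm1 made up 64.4% to 88.0% of this sum, so it says little of the other 8 genes.

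**Figure D1:**
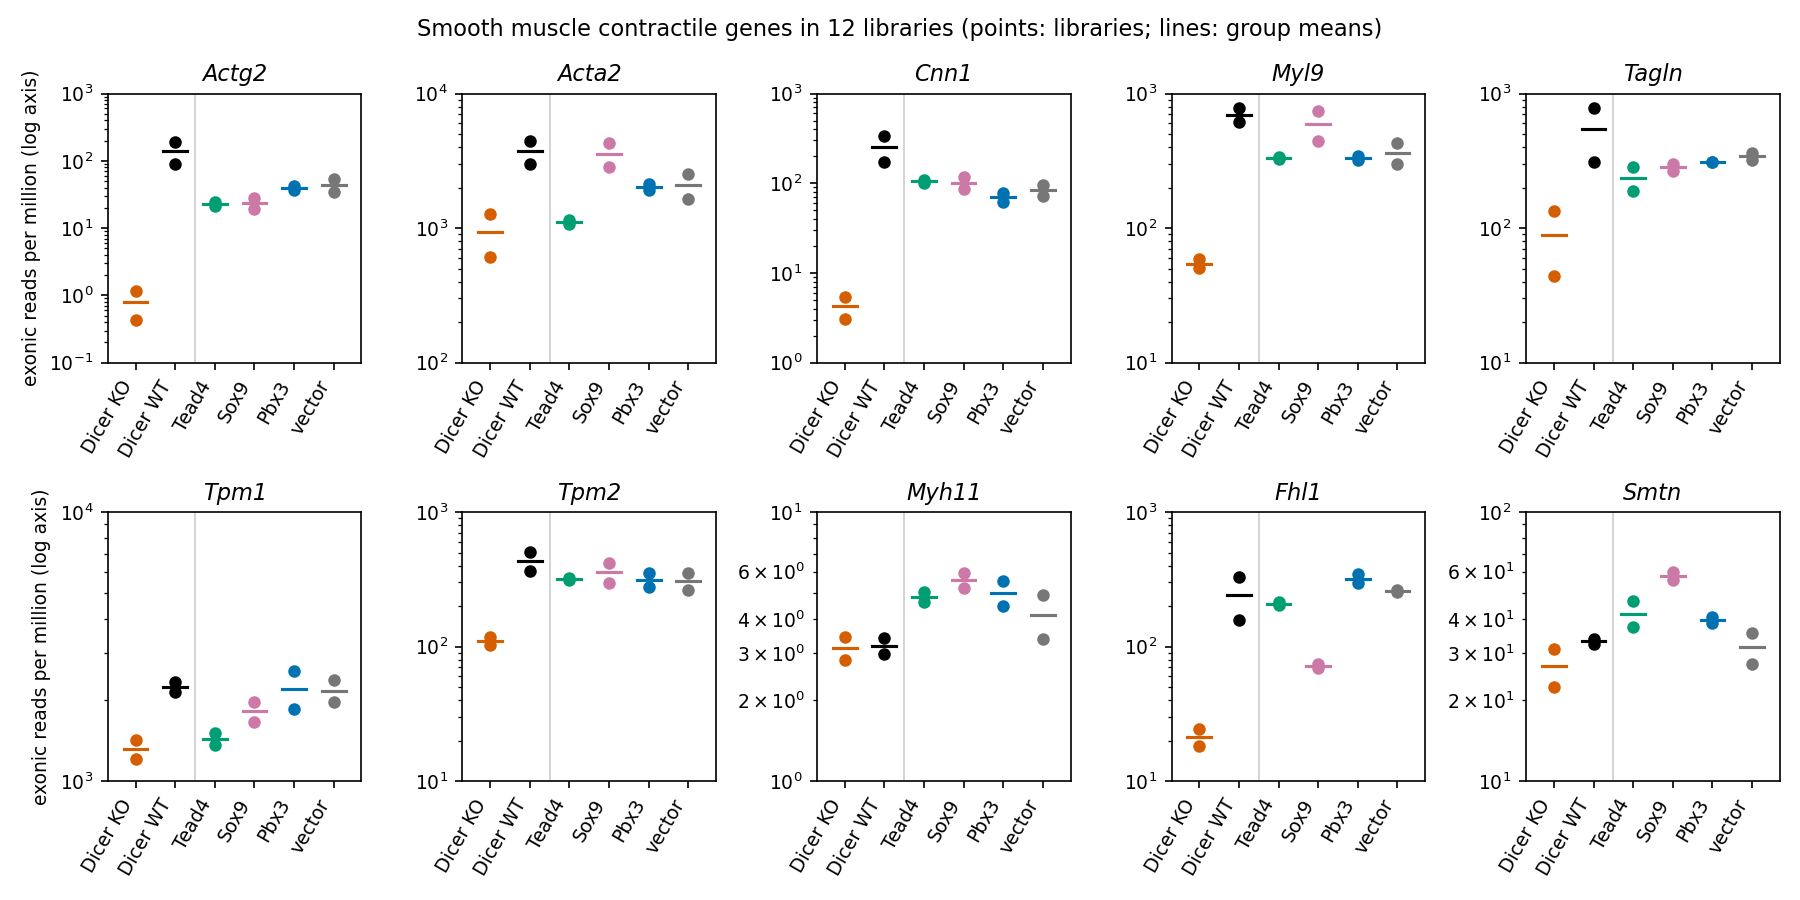
Exonic CPM (log axis) of each of the 10 genes in the 12 libraries, with Dicer KO and Dicer WT left of the grey line and the transfected Dicer WT cells right of it; points are libraries and short lines group means. Actg2 stands at 1.15 and 0.434 CPM in Dicer KO cells, against 189 and 91.1 CPM in Dicer WT cells, while Myh11 lies between 2.81 and 5.92 CPM throughout.

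In the exonic reads of Dicer KO cells, 7 of the 10 contractile genes fell and none rose. Over all genes tested, 7.36% fell and 9.28% rose. The median log2 change of the 10 genes was -2.36, against 0.01 over all 10706 genes tested. In 9 of the 10 genes both Dicer KO libraries lay below both Dicer WT libraries, which was so for 30.3% of all genes. In bulk RNA of this kind fewer cells that express a gene and less RNA per cell cannot be told apart.

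Both smooth muscle actins fell, Actg2 by far the more. Actg2, the actin of gut and bladder muscle, had 24.8 and 9.29 normalised counts in Dicer KO cells, against 4136 and 1879 in Dicer WT cells. It fell by 7.42 ± 0.57 on the log2 scale (limma adjusted p = 0.00455), with group means 177-fold apart, and rested on 36 reads in both Dicer KO libraries together. Acta2 had 27400 and 12959 normalised counts in Dicer KO cells, against 97898 and 61429 in Dicer WT cells. It fell by 2.04 ± 0.41 (limma adjusted p = 0.0325) and remained a highly expressed gene in the Dicer KO clone. Without Dicer KO library 2 the Acta2 difference was -1.50 and did not pass (limma adjusted p = 0.091).

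Among the proteins that line the actin filament, Cnn1 had 117 and 65.1 normalised counts in Dicer KO cells, against 7392 and 3544 in Dicer WT cells. Cnn1 encodes calponin, which binds actin and restrains myosin, and it fell by 5.86 ± 0.44 (limma adjusted p = 0.00428). Both libraries of one clone were more than an order of magnitude from both of the other. Tagln had 2883 and 936 normalised counts in Dicer KO cells, against 17148 and 6338 in Dicer WT cells. Its groups did not overlap, but the libraries within a group lay 1.62 (Dicer KO) and 1.44 (Dicer WT) apart on the log2 scale, and the difference of -2.67 ± 0.67 did not pass (limma adjusted p = 0.0537). With a minimum mean of 10 or scaling by total reads it passed (limma adjusted p = 0.0484 and 0.0448). Over the alternatives and the fits without 1 library the Tagln difference ranged from -3.48 to -1.85. Of the exonic bases of Tagln, 62.4% overlap the antisense gene Gm48529, and whether reads were counted by strand is not given in the sources used here.

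The tropomyosins, which lie along the actin groove, fell less. Tpm2 had 2551 and 2203 normalised counts in Dicer KO cells, against 11075 and 7456 in Dicer WT cells, and fell by 1.94 ± 0.22 (limma adjusted p = 0.00799). Tpm1 had 30643 and 25967 in Dicer KO cells, against 50984 and 44157 in Dicer WT cells, and fell by 0.75 ± 0.17 (limma adjusted p = 0.0432). The Tpm1 call was lost without Dicer KO library 1, Dicer KO library 2 or Dicer WT library 1, with limma adjusted p = 0.171, 0.295 and 0.0732 and differences of -0.87, -0.63 and -0.65.

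Of the 2 myosin subunits among the 10 genes Myl9 fell and Myh11 did not pass. Myl9 had 1261 and 1079 normalised counts in Dicer KO cells, against 16953 and 12567 in Dicer WT cells, a difference of -3.64 ± 0.19 (limma adjusted p = 0.0022). Myl9 is the light chain that myosin light chain kinase phosphorylates, and its 2 libraries lay 0.22 (Dicer KO) and 0.43 (Dicer WT) apart on the log2 scale. Myh11 had 60.5 and 73.3 normalised counts in Dicer KO cells, against 74.5 and 61.3 in Dicer WT cells, and its groups overlapped (-0.02 ± 0.32, limma adjusted p = 0.97). These counts rest on 137 reads in Dicer KO cells and 134 reads in Dicer WT cells.

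Fhl1, a protein with LIM domains found in muscle of all kinds, had 526 and 393 normalised counts in Dicer KO cells, against 7172 and 3225 in Dicer WT cells. It fell by 3.40 ± 0.40 (limma adjusted p = 0.00844). Smtn had 483 and 663 in Dicer KO cells, against 741 and 667 in Dicer WT cells, and did not pass (-0.31 ± 0.21, limma adjusted p = 0.336). The nearest Smtn libraries of the 2 clones were all but equal, and 16.3% of its exonic bases overlap the antisense-strand gene Gm11946. The authors' deposited table gave an adjusted p under 0.05 for the same 7 genes, where it did so for 11.0% of all genes, and for Tagln an adjusted p of 0.21.

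Intronic reads of the same genes were lower in the same cells. In Dicer KO cells 5 of the 9 genes tested fell and none rose, where 3.65% of all genes tested fell and 2.86% rose. Myh11, with 15 intronic reads in Dicer KO cells and 14 in Dicer WT cells, was below the minimum. The median difference of the 9 genes was -2.66, against 0.02 over all genes, and in all 9 both Dicer KO libraries lay below both Dicer WT libraries, which was so for 28.4% of all genes. Libraries of intronic reads are numbered on their own and not matched to the exonic ones.

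Cnn1 had 4.93 and 11 normalised intronic counts in Dicer KO cells, against 798 and 373 in Dicer WT cells, and fell by 6.02 ± 0.52 (limma adjusted p = 0.00869). Actg2 had 3.94 and 11 in Dicer KO cells, against 579 and 305 in Dicer WT cells, and fell by 5.77 ± 0.55 (limma adjusted p = 0.0107). Only 16 reads of Cnn1 and 15 of Actg2 lie behind the Dicer KO values. Myl9 had 59.2 and 63.0 in Dicer KO cells, against 922 and 653 in Dicer WT cells (-3.65 ± 0.22, limma adjusted p = 0.00403). Fhl1 fell by 2.66 ± 0.43 and Tpm2 by 1.72 ± 0.23 (limma adjusted p = 0.0347 and 0.0216). Both of these calls were lost without intronic Dicer KO library 1 (limma adjusted p = 0.0988 and 0.0851) or library 2 (0.074 and 0.0737), and Fhl1 had an adjusted p of 0.171 in the authors' deposited table.

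The other 4 genes did not pass in intronic reads, and in the authors' deposited table, where 4.52% of all genes had an adjusted p under 0.05, the genes under it were Actg2, Acta2, Cnn1, Myl9 and Tpm2. Acta2 had 2019 and 4302 normalised counts in Dicer KO cells, against 16277 and 9815 in Dicer WT cells (-2.10 ± 0.43, limma adjusted p = 0.0591). The authors' deposited table gave it an adjusted p of 0.0318. Over the alternatives and the fits without 1 library the intronic Acta2 difference ranged from -2.65 to -1.55. Tagln was at -2.70 ± 0.72 (limma adjusted p = 0.105), Tpm1 at -0.51 ± 0.24 (0.261) and Smtn at -0.35 ± 0.17 (0.282). All 4 lay on the same side as in exonic reads.

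The difference between the exonic and the intronic change was tested in 1 model over both kinds of reads. Both kinds come from the same libraries, but the sources do not match them, so the values entered unpaired. The gap between libraries then counts as error, and a gene that did not pass is not shown to change alike in both. With the libraries unpaired, 0 of the 9 genes passed, where 1 of 9402 genes (0.0106%) did. An unadjusted p under 0.05 was found for 0 of the 9 and for 450 of the 9402 genes. For 7 of the 9 genes the exonic minus intronic difference lay between -0.24 and 0.16. Actg2 was at -1.65 ± 0.93 and Fhl1 at -0.74 ± 0.70 (limma adjusted p = 0.9999 for both), their exonic reads being the further apart between the clones. Pairing exonic with intronic libraries by the sign of the gap within a group gave the same values and passed both (limma adjusted p = 0.00388 and 0.0221), in a fit that called 314 genes.

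**Figure D2:**
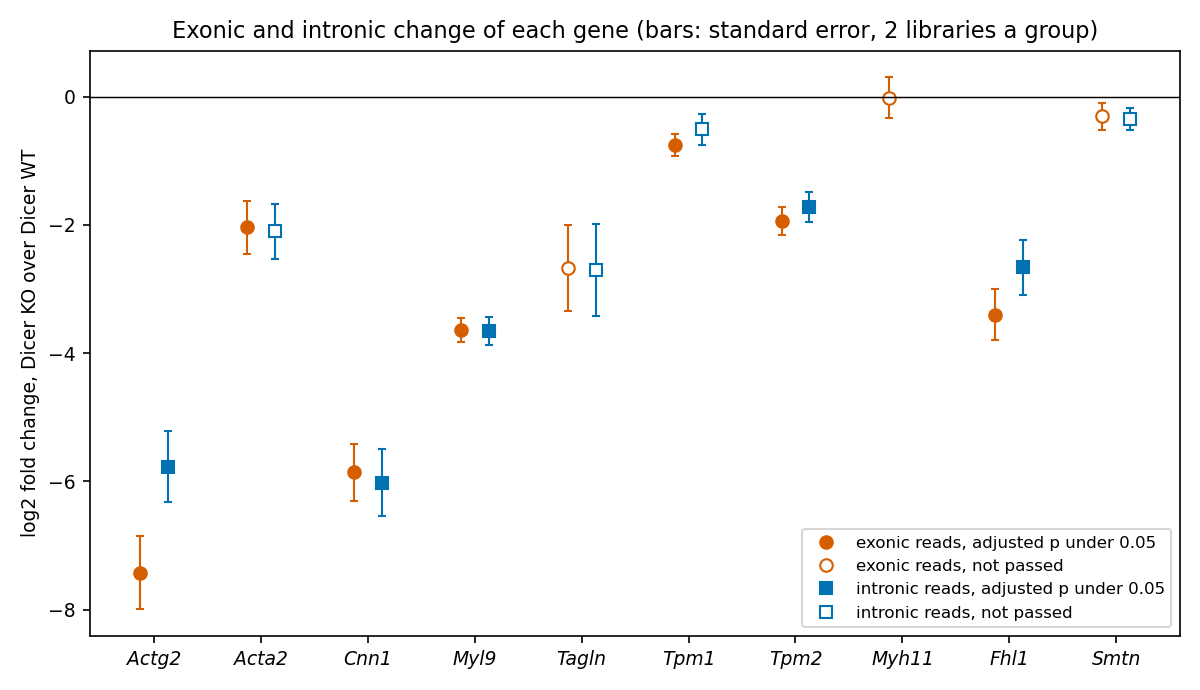
Log2 fold change of Dicer KO over Dicer WT for each gene in exonic reads (circles) and intronic reads (squares), with bars for the standard error from 2 libraries per group; filled symbols passed a limma adjusted p under 0.05. Cnn1, Myl9, Acta2 and Tagln have nearly the same value in both kinds of reads, while Actg2 is at -7.42 in exonic and -5.77 in intronic reads.

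Other genes of the same protein families were read in the same cells. Of the 17 such genes tested 4 fell and none rose, with a median of -0.21, where 7.36% of all genes fell and 9.28% rose. Those that fell were Actc1, the cardiac actin (-2.69 ± 0.54), Fhl4 (-1.66 ± 0.40), Tpm4 (-1.14 ± 0.20) and the essential light chain gene Myl6 (-0.95 ± 0.13), with limma adjusted p = 0.032, 0.0494, 0.0221 and 0.0114. The cytoplasmic actins Actb and Actg1 were at 0.12 and -0.22, the skeletal actin Acta1 at -1.0 ± 0.32, and none of these 3 passed (limma adjusted p = 0.70, 0.558 and 0.0898). The calponins Cnn2 and Cnn3 were at -0.65 and -0.02, the non-muscle light chains Myl12a and Myl12b at -0.18 and -0.14, and Tagln2 at -0.08. The non-muscle myosin heavy chains Myh9 and Myh10 were at -0.21 and -0.06, Tpm3 at 0.35, Fhl2 at 0.50 and Fhl3 at -0.36, and none of these 10 genes passed (limma adjusted p from 0.0625 to 0.919). Reads of 50 bases would fit both Acta2 and Actg1 at 7 of 2146 positions and both Myh11 and Myh9 at 26 of 7644, and Actg2, Cnn1, Myl9, Tpm1, Tpm2 and Fhl1 share no such stretch with another gene.

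As shares of their families per length, the contractile forms made up less in Dicer KO cells in 5 of 7 families. Myl9 was 13.6% and 12.9% of the regulatory myosin light chains in Dicer KO cells, against 64.6% and 61.3% in Dicer WT cells. Cnn1 was 0.804% and 0.359% of the calponins, against 25.7% and 13.3% in Dicer WT cells, and Fhl1 5.28% and 4.12% of its family, against 44.8% and 35.9%. Acta2 and Actg2 together were 12.9% and 6.38% of the actins in Dicer KO cells, against 35.3% and 27.9% in Dicer WT cells. Tagln was 31.96% and 17.1% of the transgelins, against 75.9% and 52.6%. In these 5 families the clones did not overlap. The tropomyosins differed: Tpm1 and Tpm2 together were 35.5% and 30.6% in Dicer KO cells, against 31.9% and 33.7% in Dicer WT cells. Myh11 was at 0.343% and 0.344% of the non-sarcomeric myosin heavy chains in Dicer KO cells, against 0.337% and 0.274% in Dicer WT cells. The nearest Myh11 shares of the clones were all but equal and rest on few reads, so no direction is read from them. These shares are given as a description, with no test.

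**Figure D3:**
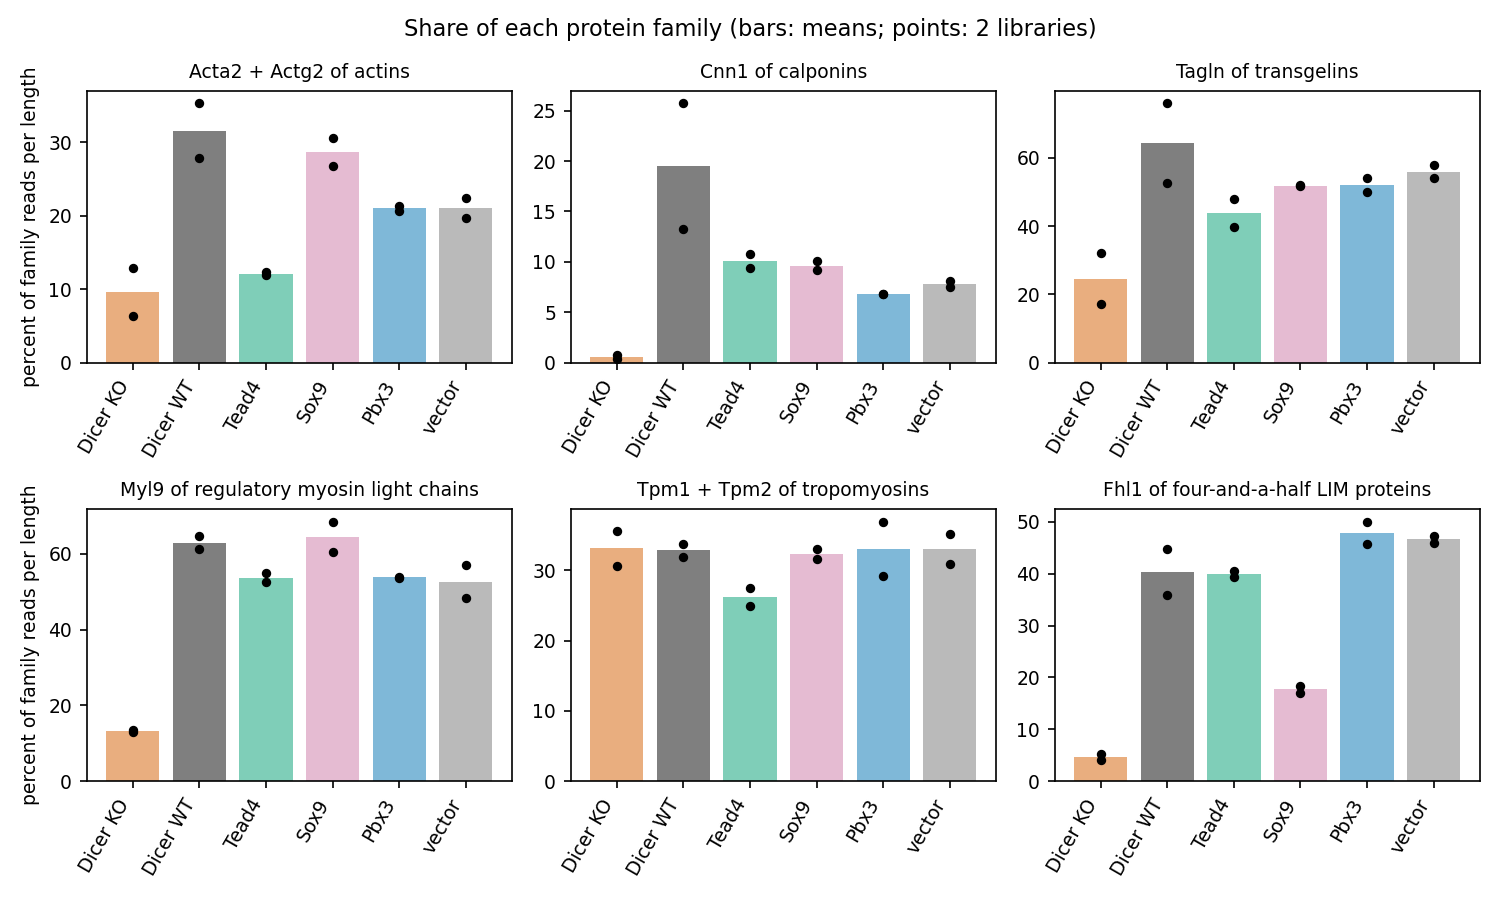
Percent of a protein family's reads per length that came from the contractile genes named above each panel, in the 6 groups; bars are means of 2 libraries and points the libraries. The share is lower in Dicer KO than in Dicer WT cells in 5 of the 6 panels, with overlap in the tropomyosins (the family of Myh11 is not drawn). Fhl1 is at 16.9% and 18.4% in Sox9 cells, against 45.9% and 47.3% in vector cells.

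Further genes of smooth muscle and its regulators were read from 3 lists. Of 30 other smooth muscle genes 21 were tested in exonic reads of Dicer KO cells, of which 7 fell, 1 rose and 13 did not pass (median -0.63), where 7.36% of all genes fell and 9.28% rose. The largest changes were in Pgm5, an adhesion plaque protein (-3.75 ± 0.40, limma adjusted p = 0.00708), and in Mylk, the myosin light chain kinase. Mylk had 341 and 897 normalised counts in Dicer KO cells, against 2783 and 7456 in Dicer WT cells, and fell by 3.04 ± 0.62 (limma adjusted p = 0.0328). Mustn1 fell by 2.53 ± 0.55 and the small heat shock protein Hspb1 by 2.47 ± 0.36 (limma adjusted p = 0.0387 and 0.0151). Mylk was higher in library 2 of each clone, whereas Actg2, Acta2, Cnn1, Tagln and Fhl1 were higher in library 1. Desmin (Des), the muscle intermediate filament, was among the genes that did not pass, at -0.02.

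Of the regulators of the programme 35 were tested, of which 4 fell, 2 rose and 29 did not pass (median -0.09), shares near the 7.36% and 9.28% of all genes, so nothing is read from the counts. The factors that bind or drive the CArG box did not pass, with Srf at -0.24 ± 0.18, myocardin (Myocd) at 0.07 ± 0.40, and the myocardin-related factors Mkl1 and Mkl2 at 0.18 ± 0.22 and 0.37 ± 0.15. Their limma adjusted p values were 0.39, 0.916, 0.61 and 0.163. Hey2, a repressor in the Notch pathway, had 6.42 and 4.13 normalised counts in Dicer KO cells, against 158 and 93.6 in Dicer WT cells, and fell by 4.31 ± 0.52 (limma adjusted p = 0.00928). Tead3 fell by 2.07 ± 0.30 while Tead4 rose by 2.24 ± 0.51 (limma adjusted p = 0.0142 and 0.0415), and the TGF-beta receptor gene Tgfbr1 rose by 1.24 ± 0.16 (0.0111). Tead4 had 237 and 164 normalised counts in Dicer KO cells, against 65.1 and 25.6 in Dicer WT cells.

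Of 30 actin and adhesion genes that SRF and its partners also control, 3 fell, 1 rose and 26 did not pass (median -0.22), beside 7.36% and 9.28% of all genes, which is again no result about the list. Besides Tpm4, Tgfb1i1 fell by 1.36 ± 0.29 and the actin capping gene Capg by 1.18 ± 0.18, while the integrin gene Itga5 rose by 1.06 ± 0.19 (limma adjusted p = 0.037, 0.0166 and 0.025). Markers of stromal cells moved too. Of 11 tested, 4 fell and none rose, the collagens Col1a1 (-2.31 ± 0.18), Col1a2 (-0.96 ± 0.15) and Col3a1 (-0.78 ± 0.17) and the surface antigen Ly6a (-1.17 ± 0.26), with limma adjusted p = 0.0046, 0.019, 0.0357 and 0.0407. The 12 listed markers had 4782 and 4271 CPM in sum in Dicer KO libraries, against 6495 and 6326 CPM in Dicer WT libraries. Of 6 pericyte markers 2 were tested. Mcam fell by 3.46 ± 0.28 (limma adjusted p = 0.00467), while Notch3 did not pass (0.10 ± 0.47, limma adjusted p = 0.901). The other 4 were under 1 CPM in both clones. The 6 markers summed to 21.4 and 23.9 CPM in Dicer KO cells, against 167 and 131 CPM in Dicer WT cells. Mcam alone had 15.3 and 9.99 CPM, against 160 and 119 CPM, so the sum says little of the others. The 13 striated muscle markers summed to 70.5 and 44.6 CPM in Dicer KO cells, against 144 and 94.3 CPM in Dicer WT cells. Whether cells of another kind or state had a part in the fall of the contractile genes was not tested.

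**Figure D4:**
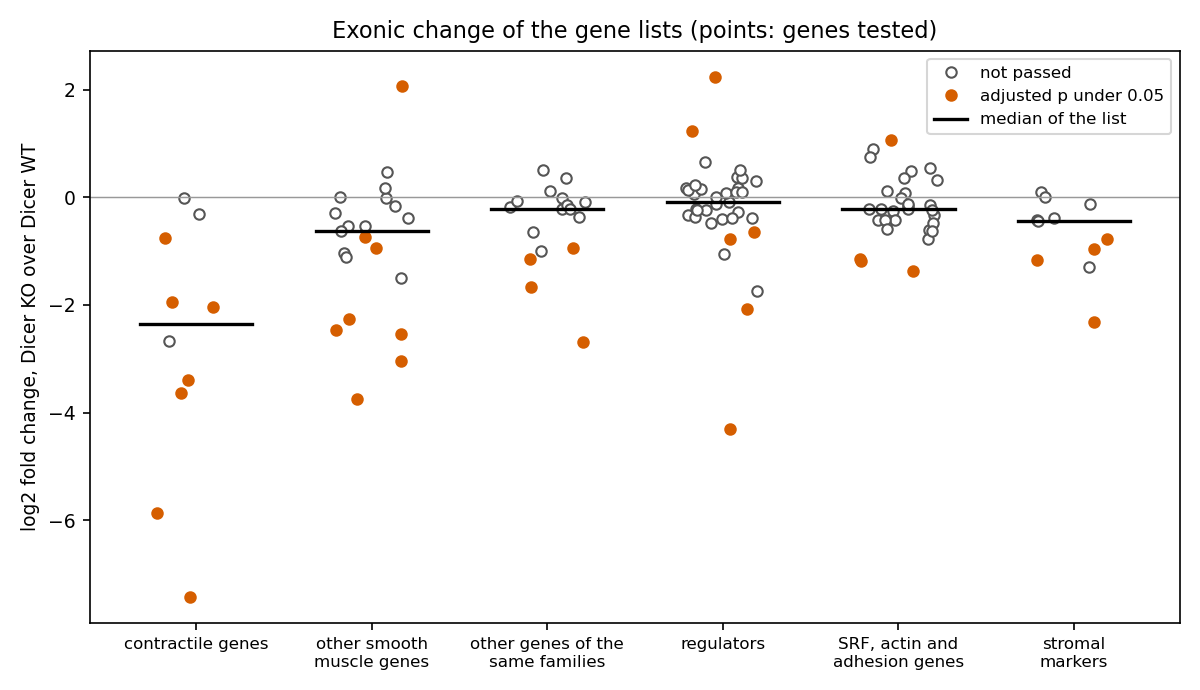
Exonic log2 fold change of Dicer KO over Dicer WT for each tested gene of 6 lists, with filled points for a limma adjusted p under 0.05 and a line at each list's median. The 10 contractile genes have a median of -2.36, the other smooth muscle genes -0.63, and the regulators -0.09 with Hey2 as the lowest point.

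Among the transfected cells, no contractile gene passed under Tead4 in exonic reads. This count was 0 of 9 with limma, 0 of 9 with limma voom and 0 of 9 in the authors' deposited table, where limma called 0.143% of all genes and the authors' deposited table called 1.7%. A term for library order passed Acta2, Actg2 and Tpm1, all lower. The signs of this term were set from differences between these same libraries. For the transfected cells its calls stand without the share of all genes it called, so nothing is read from them. Myh11 was below the minimum in each of the 3 factor comparisons. An unadjusted limma p under 0.05 was found for 5 of the 9 genes and for 1554 of all 9796 genes tested. The median was -0.33, against 0.01 over all genes. Acta2 had 10477 and 10978 normalised counts in Tead4 cells, against 23909 and 16378 in vector cells (-0.88 ± 0.21, limma adjusted p = 0.164). Actg2 had 239 and 200 in Tead4 cells, against 504 and 341 in vector cells (-0.92 ± 0.23, limma adjusted p = 0.169). Tpm1 had 13288 and 14418 in Tead4 cells, against 22529 and 19617 in vector cells (-0.60 ± 0.15, limma adjusted p = 0.17). For these 3 genes and for Tagln and Fhl1 both Tead4 libraries lay below both vector libraries, 5 of the 9 genes, which was so for 24.0% of all genes, and for Cnn1 and Smtn both lay above, which was so for 25.2%.

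Tagln was at -0.57 ± 0.22 and Fhl1 at -0.33 ± 0.13 under Tead4, while Smtn was at 0.41 ± 0.19, Cnn1 at 0.33 ± 0.16, Tpm2 at 0.05 ± 0.16 and Myl9 at -0.12 ± 0.18. The limma adjusted p of these 6 lay between 0.291 and 0.911. The outcome depended on the vector libraries. Without vector library 1, limma called 6 of the 9 genes, with Acta2, Actg2, Tagln and Tpm1 lower and Cnn1 and Smtn higher, and without vector library 2 it called 4, the same 4 that were lower. In a fit where 1 arm is a single library, that library is taken to vary like the other arm, and these fits called 2385 and 1144 of all genes. In intronic reads 0 of 8 genes passed limma, where 1.61% of all genes did. An unadjusted p under 0.05 was found for 3 of the 8 and for 1327 of all 8582 genes tested. There Acta2 was at -0.92 ± 0.30, Tagln at -0.70 ± 0.25 and Tpm1 at -0.69 ± 0.18 (limma adjusted p = 0.2, 0.238 and 0.129), and the authors' deposited table gave Tpm1 alone an adjusted p under 0.05, of 0.0364, as it did 1.07% of all genes. A term for library order passed 4 genes there, Acta2, Tagln and Tpm1 lower and Cnn1 higher. Over the alternatives and the fits without 1 library, intronic Acta2 ranged from -1.38 to -0.46, Tagln from -1.0 to -0.40 and Tpm1 from -0.83 to -0.55.

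Under Sox9, Fhl1 fell. It had 574 and 588 normalised counts in Sox9 cells, against 2102 and 2178 in vector cells, with little spread in either group. The difference was -1.88 ± 0.15 (limma adjusted p = 0.00258), and it was the only one of 9 genes to pass, where 0.0928% of all genes fell and 0.454% rose, and the only one in the authors' deposited table, which called 1.14% of all genes. In intronic reads Fhl1 had 197 and 233 normalised counts in Sox9 cells, against 674 and 578 in vector cells, and fell by 1.54 ± 0.17 (limma adjusted p = 0.00252), as 1 of 8 genes, where 0.538% of all genes fell and 1.45% rose. Every alternative and every fit without 1 library left Fhl1 past the threshold in both kinds of reads, with differences of -1.90 to -1.85 in exonic and -1.66 to -1.42 in intronic reads.

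The other contractile genes were split under Sox9. Both Sox9 libraries lay above both vector libraries for 3 of the 9 genes tested and below for 4, Fhl1 among these 4. This was so for 21.8% and 23.4% of all genes. Smtn had 464 and 479 normalised counts in Sox9 cells, against 284 and 231 in vector cells, at 0.88 ± 0.18 (limma adjusted p = 0.122). Acta2 was at 0.76 ± 0.31 and Myl9 at 0.66 ± 0.29, while Actg2 was at -0.91 ± 0.27 (limma adjusted p = 0.371, 0.395 and 0.263). Cnn1 and Tpm2 were at 0.27 ± 0.22 and 0.19 ± 0.23, and Tagln and Tpm1 at -0.29 ± 0.17 and -0.27 ± 0.23, with limma adjusted p from 0.51 to 0.76. Over the alternatives and the fits without 1 library, Smtn ranged from 0.73 to 1.02, Myl9 from 0.26 to 1.06 and Actg2 from -1.21 to -0.62. A term for library order passed Acta2, Actg2, Myl9 and Smtn besides Fhl1 in exonic reads, and Acta2, Smtn, Tagln and Tpm1 besides Fhl1 in intronic reads. The smooth muscle actins Acta2 and Actg2 had differences of opposite sign in Sox9 cells, but neither passed in the main fit. Mef2c, a muscle transcription factor, had 691 and 379 normalised counts in Sox9 cells, against 81.4 and 61.3 in vector cells, and rose by 2.84 ± 0.31 (limma adjusted p = 0.0105).

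Under Pbx3 no contractile gene passed without a term for library order. In exonic reads 0 of 9 passed limma, limma voom or the authors' deposited table. Of all genes 0.0102% passed limma and 0.102% the authors' deposited table. An unadjusted p under 0.05 was found for 0 of the 9 and for 233 of all 9826 genes tested. The 9 differences lay between -0.24 and 0.36. Fhl1 had 3505 and 2839 normalised counts in Pbx3 cells, against 2527 and 2600 in vector cells (0.30 ± 0.17, limma adjusted p = 0.9998), so both Pbx3 libraries were higher. In intronic reads 0 of 9 passed limma, limma voom or the authors' deposited table, with 0.0% of all genes past limma and 0.108% past the authors' deposited table. There an unadjusted p under 0.05 was found for 0 of the 9 and for 248 of all 8557 genes tested. The values lay between -0.23 and 0.34, the upper end being Fhl1. A term for library order passed Fhl1 in both kinds of reads.

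The 3 factors share their vector libraries, so they were compared with each other in 1 fit over the 8 transfected libraries. Between Tead4 and Sox9 cells 2 of 9 genes passed, where 3.56% of all genes did. Acta2 was lower in Tead4 cells, at 1073 and 1152 CPM, against 4271 and 2831 CPM in Sox9 cells (-1.65 ± 0.25, limma adjusted p = 0.0177). Fhl1 was higher in Tead4 cells, at 214 and 203 CPM, against 69.1 and 73.7 CPM in Sox9 cells (1.54 ± 0.13, limma adjusted p = 0.00297). Acta2 did not pass without Sox9 library 1, Tead4 library 1 or Tead4 library 2 (limma adjusted p = 0.111, 0.157 and 0.0752), whereas Fhl1 passed in each.

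Between Sox9 and Pbx3 cells 1 of 9 genes passed, where 0.941% of all genes did. This was Fhl1, at 69.1 and 73.7 CPM in Sox9 cells, against 343 and 295 CPM in Pbx3 cells (-2.18 ± 0.13, limma adjusted p = 0.000711). Between Tead4 and Pbx3 cells 0 of 9 passed limma or limma voom, where 0.787% of all genes passed limma. An unadjusted p under 0.05 was found for 5 of the 9 and for 1634 of all 9778 genes tested. The nearest to the threshold was again Fhl1 (-0.64 ± 0.13, limma adjusted p = 0.0795). With a term for library order 5 of 9 passed in each of these 2 contrasts, a count without the share of all genes beside it, from which nothing is read. In transfected cells the CPM of Fhl1 ordered Sox9, Tead4, vector and Pbx3 from low to high, and no neighbouring groups overlapped. Neither Tead4 nor Pbx3 cells passed against vector cells for Fhl1. In normalised counts, 24.0% of all genes had both Tead4 libraries below both vector libraries. The share of all genes with such a 4-group order was not counted, so nothing is read from it.

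**Figure D5:**
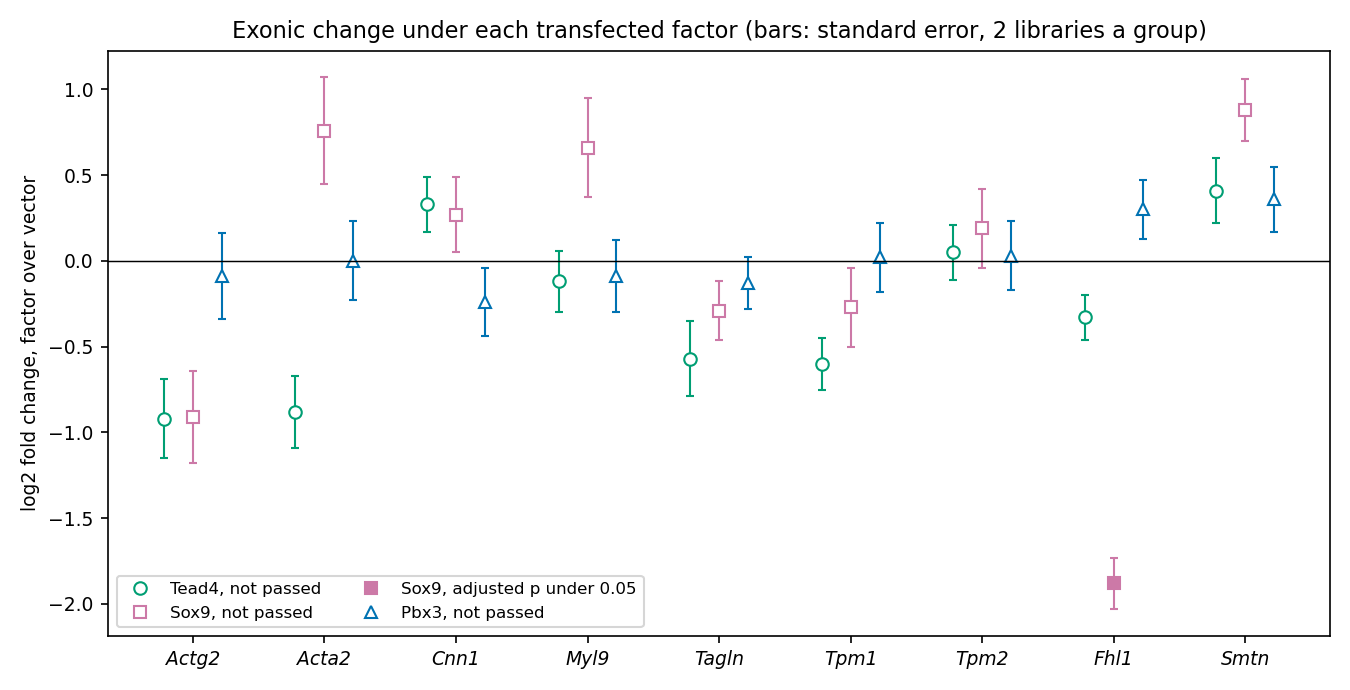
Log2 fold change of Tead4, Sox9 or Pbx3 cells over vector cells in exonic reads for the 9 genes tested, with bars for the standard error from 2 libraries per group; the filled square passed a limma adjusted p under 0.05. Fhl1 under Sox9 is at -1.88, and Acta2 is at -0.88 under Tead4 and 0.76 under Sox9, both open symbols.

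The 2 libraries of a group differed from each other in the contractile genes, most of which were higher in the same library. In Dicer KO cells 8 of the 10 genes were higher in exonic library 1, with a median log2 difference of 0.33 to library 2, and in Dicer WT cells 10 of 10, with a median of 0.62. In Sox9 cells 7 of 9 were higher in library 1 (median 0.52) and in vector cells 8 of 9 (median 0.34). In Tead4 and Pbx3 cells the medians were 0.12 and 0.10. Across all genes the medians of this difference were within 0.04 of 0. Other lists leaned too in some groups. Of 11 stromal markers 9 were higher in library 1 of vector cells (median 0.41) and 10 in Sox9 cells (0.29). In Dicer KO and Dicer WT cells their medians were -0.03 and -0.04, and in Tead4 and Pbx3 cells -0.27 and -0.70. Of 30 actin and adhesion genes 23 were higher in library 1 of Dicer WT cells (0.23) and 14 in Dicer KO cells (-0.04). Among the contractile genes the exonic gap was widest in Tagln, at 1.62 in Dicer KO cells and 1.44 in Dicer WT cells. In Dicer WT cells Tagln had 783 CPM in library 1 and 307 CPM in library 2. What made the libraries differ was not tested.

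Untransfected Dicer WT cells and vector cells are in different tables and were not tested against each other. Side by side, Actg2 had 53.0 and 34.1 CPM in vector cells and 189 and 91.1 CPM in Dicer WT cells, and Cnn1 95.2 and 71.2 CPM in vector cells and 338 and 172 CPM in Dicer WT cells. Fhl1 had 263 and 257 CPM in vector cells and 328 and 156 CPM in Dicer WT cells.

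The 5 other genes whose CPM over the 12 libraries was most like the mean profile of the 9 genes tested were Mcam, Ranbp17, Kcnh1, Gtf2h5 and Dlg2. Their Pearson correlations with the profile were 0.969, 0.967, 0.961, 0.958 and 0.956, among 10811 genes searched. Points of 1 group share a clone and a transfection, so these values only describe. Mcam, a cell adhesion molecule of vessel walls, had 15.3 and 9.99 CPM in Dicer KO cells, against 160 and 119 CPM in Dicer WT cells. Kcnh1, a potassium channel gene, had 0.17 and 0.0966 CPM in Dicer KO cells, against 15.2 and 8.21 CPM in Dicer WT cells. Of the 9 genes themselves, Tpm2 (0.982) and Myl9 (0.974) were closest to the mean profile and Smtn (0.483) the furthest from it.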

How the data were processed

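Strand-specific, single-end libraries were made from total RNA depleted of ribosomal RNA, per the labels' protocols and titles. The submitters' processing notes name Bowtie2, mm9 and DESeq 1.10.1. For 4 comparisons, 8 deposited tables give exonic and intronic reads per gene. Their signal columns hold counts that the authors divided by size factors and averaged over a group, per the file headers. The deposited fold column is the ratio of the group means, the log2 column is its log2 as the authors deposited it, and the p-value columns are from the authors' test, per the file headers. No source used here gives the annotation or the use of strand in counting.

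Each deposited group mean was resolved into whole reads of 2 libraries, with a unique solution for 100% of genes at a tolerance of 1e-09 (the step was tested on simulated data). All 3 factor tables gave 1 set of vector reads, with 0 genes differing. Library 1 is the one with the larger size factor, and this number pairs nothing. Tests used limma 3.58.1 in R 4.3.3, its trend option set, on log2 of the normalised count plus 1, for genes with a mean of at least 50, 2 libraries against 2, with Benjamini-Hochberg adjustment over all genes at 0.05. Factors were compared with each other in 1 fit over 8 libraries. Spread between libraries, which may be technical, is all that the p-values measure, and counts of reads carry counting error besides. Intervals were not computed. Columns of samples without a group numbered 0.

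Named were the 10 genes, the 4 genes of each list with the largest Dicer KO change past the threshold and up to 2 more past it under a factor, all tested genes of the same families, and the 5 most similar genes; Des, Srf, Myocd, Mkl1 and Mkl2 were added after their values were seen. Genes and lists were chosen with earlier results of these data known. The CArG-like box was defined after the promoters were read. Exon lengths and overlaps are from GENCODE M21 on GRCm38, matched by symbol, and promoters from RefSeq; no mm9 coordinate is given. Alternatives were a pseudocount of 5, a minimum mean of 10 or 200, scaling by total reads, limma voom on the recovered reads, a term for library order, the authors' adjusted p and leaving out each library.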

Additional observations from a re-analysis of the deposited data

Results flagged for a closer look

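3 differences between cells given different factors passed a direct test in the fit over the 8 transfected libraries. Sox9 transcripts themselves did not pass there, at -0.68 ± 0.46 for Tead4 against Sox9 cells and 1.51 ± 0.46 for Sox9 against Pbx3 cells (limma adjusted p = 0.457 and 0.171). Acta2 was lower in Tead4 than in Sox9 cells by a log2 difference of -1.65. Fhl1 was higher in Tead4 than in Sox9 cells by 1.54. Fhl1 was lower in Sox9 than in Pbx3 cells by a difference of -2.18.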

How the results depend on the processing

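The labels carry no replicate numbers, so no libraries could be paired by design, and the pairing of exonic with intronic libraries was taken from the data. A term for library order comes from differences between these same libraries and not from the design, so its counts are not read as results. With it the genes that passed numbered 8 for intronic Dicer KO (5 without it), 3 and 4 for exonic and intronic Tead4 (0 and 0), 5 and 5 for Sox9 (1 and 1), 1 and 1 for Pbx3 (0 and 0), 5 for Sox9 against Pbx3 (1) and 5 for Tead4 against Pbx3 (0), and it called 3112 of all genes in intronic Dicer KO, against 665 without it. Pairing exonic with intronic libraries gave 2 in place of 0, and the authors' deposited adjusted p gave 1 in place of 0 for intronic Tead4. Leaving out 1 library gave 5 to 8 genes for exonic and 3 to 7 for intronic Dicer KO, 0 to 6 and 0 to 3 for exonic and intronic Tead4, 1 to 3 and 1 to 2 for Sox9, and 1 to 2 for Tead4 against Sox9. In each fit without 1 library a group is a single library, and for most of these fits the share of all genes called is not given. The counts of genes from the fits without 1 library are therefore not read as results. With 1 library left out, 5 values near 0 turned sign, those of 4 differences: Myh11 (without Dicer KO library 1 or Dicer WT library 1) ranged from -0.16 to 0.12 for Dicer KO, Tpm2 from -0.08 to 0.45 for Sox9, and Myl9 from -0.35 to 0.11 and Tpm2 from -0.13 to 0.22 for Tead4. Of 332 values of single genes under other settings, 308 kept direction and side of the threshold, 23 came to pass and 1 no longer did. Of 196 values without 1 library these were 158, 22 and 11, and the other 5 turned sign. With 2 libraries a group, a gene that did not pass is not shown to be unchanged, and Myh11, with 78 to 137 exonic reads per group, could show only large changes.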
